A study of Mus musculus with 9 samples.

Results

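The response of brain tissue to lipopolysaccharide (LPS), a component of the bacterial outer membrane that activates Toll-like receptor 4, was read from bulk RNA sequencing of the paraventricular nucleus of the thalamus (PVT), which lies at the midline and takes part in arousal. Wild-type mice received either LPS or phosphate-buffered saline (PBS) into the peritoneal cavity, and 3 libraries per group represented the tissue at 1 day. The sources used here give no strain, age, sex or LPS dose for the mice. The comparison covers all genes on chromosomes 1 to 19: 20731 of the 21899 genes in the table, taken by chromosome alone. Of these, 3298 had no count in any of the 6 libraries, and 14300 passed a filter on low counts and were tested. A further 3 libraries, from mice killed 7 days after LPS, entered the fit to share its estimate of the spread.

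Peripheral LPS does not need to reach neurons to alter the brain. Cytokines and prostaglandins act on the vessel wall, meninges and glia, and the hypothalamus drives release of corticosteroids from the adrenal gland, which enter the brain and bind the glucocorticoid receptor in most cell types. Sick animals also move, eat and groom less, and many neuronal genes vary with arousal and firing. The pathways below are ordered from the largest changes and the corticosteroid-responsive genes, through vessels, matrix and glia, to the machinery of the cell and the neuron. The best-known inflammatory genes were counted but are not described one after another.

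The libraries held 13211422 to 17210526 counts over genes, which set the unit of level used throughout, CPM, a count scaled by library total and TMM factor. Nothing in the labels ties the 3 libraries of a group to different animals, and the spread behind each p-value may therefore be partly or wholly technical. Treatment is not the only thing that separates the groups. Transcripts of the Y chromosome summed to 1, 0 and 0 counts after PBS and to 1060, 1370 and 1352 counts after LPS, so that the sex of the tissue donors and the treatment cannot be told apart for any gene below. Defining markers of the PVT were present in every library: the 17 markers of PVT and midline thalamus summed to 914 to 938 CPM after PBS and 710 to 738 CPM after LPS. Markers of neighbouring and distant regions were present too, and several of those sums also differed between the groups, as described with the neuronal genes. The part these differences play in the results was not tested.

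About 1 day after LPS, gene expression differed widely but mostly by small amounts. Of the 14300 tested genes, 7048 passed the test (49.3%; edgeR quasi-likelihood adjusted p below 0.05), 3585 of them higher (25.1%) and 3463 lower (24.2%) after LPS. The 3 LPS libraries lay wholly above or below the 3 PBS libraries for 7828 genes (54.7%). Among genes that passed, the median absolute log2 change was 0.36, and 2207 differed by less than 1.2-fold. Large changes were lopsided: 575 genes were called and at least 2-fold higher (4.02%) and 175 at least 2-fold lower (1.22%), and at least 4-fold changes numbered 202 higher and 21 lower. When the test asked for more than a 1.5-fold change instead of any change, 624 genes passed, 494 higher and 130 lower. Genes on a list of names from cytokine, interferon, complement, antigen presentation and acute phase families made up 135 of the 575 strongly higher genes. The other 440 were not on the list, which covered 324 tested genes and left 13976 others. It went by gene name and was not complete: C3ar1, Siglec1 and Cd300lf, described below, were not on it. The scatter of change against level shows this asymmetry, with the upper arm reaching much further than the lower.

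**Figure D1:**
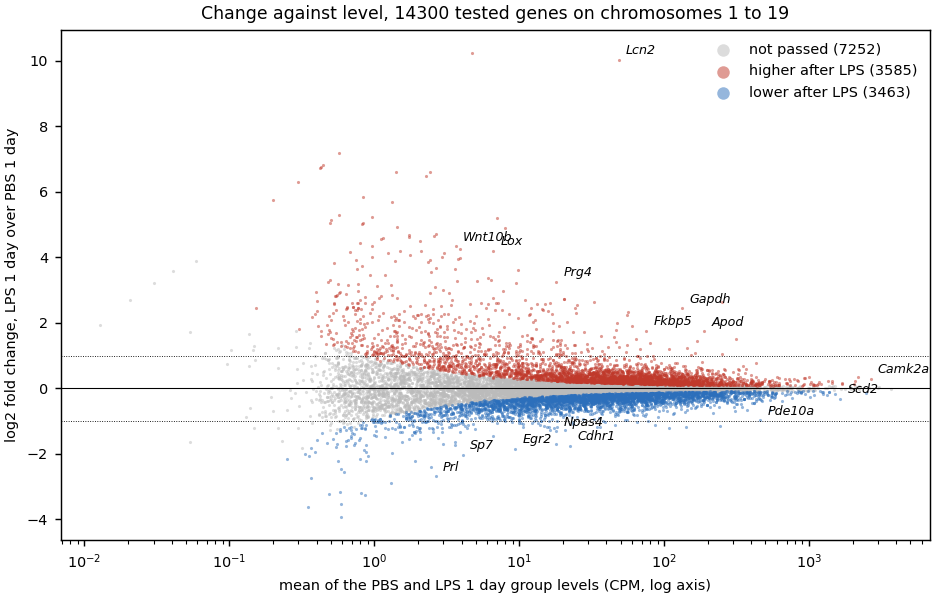
Log2 fold change 1 day after LPS (vertical axis) against the mean level of both groups (horizontal log axis, CPM), 1 point per tested gene. The 3585 red genes were higher and the 3463 blue genes lower after LPS, grey genes did not pass, and dotted lines mark 2-fold changes. Most coloured points lie between the dotted lines.

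The largest rises among genes not on the list of inflammatory names were taken at a mean of at least 5 CPM in the higher group. Wnt10b, a secreted Wnt ligand (chromosome 15, 98668593 to 98676031, GRCm39), had 0.353, 0.316 and 0.341 CPM in the PBS libraries and 5.40, 7.54 and 7.97 CPM after LPS, a log2 change of 4.35 ± 0.32 (SE; edgeR adjusted p = 1.57e-16). Lox, the lysyl oxidase that cross-links collagen and elastin (chromosome 18, 52649139 to 52662939), went from 1.12, 0.570 and 0.273 CPM to 11.7, 13.3 and 12.6 CPM (4.21 ± 0.23). Slc17a9, which loads nucleotides such as ATP into vesicles, had 0.118, 0.443 and 0.613 CPM after PBS and 8.25, 6.29 and 7.67 CPM after LPS (4.25 ± 0.34). In each of these the lowest LPS library stood several times above the highest PBS library, although the PBS levels rest on few counts. Prg4, the lubricating glycoprotein of joint and other surfaces, was measurable in both groups: 2.64, 5 and 2.59 CPM after PBS against 32.8, 34.5 and 30.8 CPM (9.56-fold). Emp1, an epithelial membrane protein, rose 9.26-fold, from 1.47, 1.84 and 2.25 CPM to 18.3, 16.1 and 16.8 CPM.

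Others among the 15 largest rises named by the same rule were Plaur, the urokinase receptor (log2 change 3.27), Alpk3, an alpha kinase of muscle (3.36), Wfikkn1, a secreted binder of myostatin (3.96), Spdef, an ETS factor of secretory epithelia (2.93), and Pmaip1, the proapoptotic protein Noxa (2.71). C3ar1, Siglec1 and Cd300lf, which encode receptors of macrophages and microglia, rose by 4.01, 3.97 and 2.76 on the log2 scale. Most of these transcripts stayed below 20 CPM after LPS. Changes of highly expressed genes were smaller in fold but moved more RNA: Camk2a, the alpha subunit of the synaptic kinase CaMKII, went from 2508, 2295 and 2341 CPM to 2928, 2949 and 2922 CPM, and Sparcl1, a secreted astrocyte glycoprotein, from 1970, 1919 and 1844 CPM to 2448, 2388 and 2404 CPM. Apod, a lipid-binding apolipoprotein of glia and meningeal cells, combined both, at 84.8, 90.4 and 86.4 CPM after PBS and 293, 296 and 285 CPM after LPS (3.34-fold, edgeR adjusted p = 2.1e-35).

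The largest falls, under the same limit of 5 CPM, included Sp7, Cdhr1 and the activity-dependent factors Egr2, Egr4 and Npas4. Sp7, a factor best known from bone, fell 4.07-fold, from 6.87, 5.88 and 6.88 CPM to 1.39, 1.87 and 1.52 CPM. Cdhr1, a cadherin of photoreceptors and olfactory bulb output neurons (chromosome 14, 36799814 to 36820304), fell 3.38-fold, from 34.5, 35.8 and 33.7 CPM to 9.17, 10.5 and 11 CPM. Slc2a5, the fructose transporter that marks microglia in brain, had 5.17, 6.14 and 5.32 CPM after PBS and 0.925, 1.62 and 2.31 CPM after LPS. None of these 3 genes overlapped between the groups, which the rule for naming genes required and which held for 27.1% of all tested genes. Edn3, an endothelin, and Rxrg, a retinoid X receptor of striatum and other regions, fell by 1.44 and 1.28 on the log2 scale. Among highly expressed genes the lead falls in CPM were Scd2, a fatty acid desaturase, with 1827, 1801 and 1834 CPM against 1489, 1491 and 1428 CPM, and Pde10a, a phosphodiesterase of striatal neurons, with 632, 575 and 618 CPM against 302, 308 and 315 CPM.

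**Figure D2:**
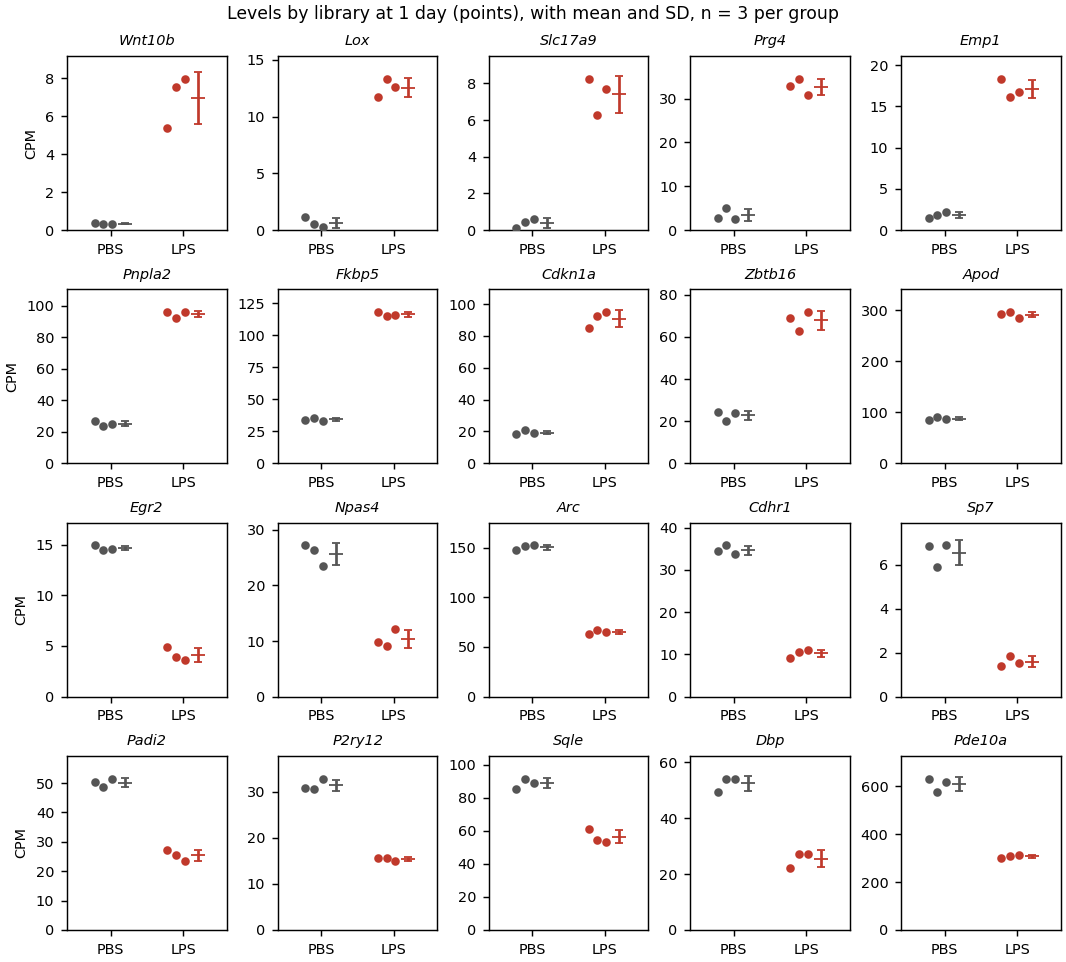
CPM of 20 genes in each library at 1 day (points, linear axes from 0; grey PBS, red LPS), with the mean and SD of 3 libraries beside them. The upper 10 genes were higher and the lower 10 lower after LPS. The groups overlap in none of the 20, which the rule for naming genes required and which held for 54.7% of all tested genes.

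Genes known to be induced by glucocorticoids were mostly higher. Of 48 tested members 39 rose (81.2%) and 2 fell, with a median log2 change of 0.90 against -0.01 for all tested genes, and 24 rose in the test against a 1.5-fold change. Fkbp5, the immunophilin that feeds back on the glucocorticoid receptor (chromosome 17, 28618068 to 28736501), went from 34.1, 35.6 and 33.1 CPM to 118, 115 and 116 CPM, a log2 change of 1.76 ± 0.06. Pnpla2, the adipose triglyceride lipase that opens lipid droplets, went from 26.7, 23.9 and 24.9 CPM to 95.9, 92.4 and 95.9 CPM (1.91 ± 0.06). Cdkn1a, the cell cycle inhibitor p21, rose 4.70-fold, from 18.3, 20.7 and 19.1 CPM to 84.9, 92.7 and 94.9 CPM. The groups did not overlap for these 3 genes, which the rule for naming genes required. The same held for 54.7% of all tested genes.

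The list also held Zbtb16, a zinc finger repressor, with 24.3, 20.3 and 23.9 CPM after PBS and 69.0, 62.7 and 71.8 CPM after LPS. Mt1, a metallothionein that binds zinc and copper, rose 2.71-fold, and Errfi1, an inhibitor of EGF receptors, 1.91-fold. Klf9, a Krüppel-like factor, rose 1.51-fold to 435 to 443 CPM, and Glul, the glutamine synthetase of astrocytes, 1.25-fold to 1019 to 1031 CPM. The 2 members that fell were Dusp1, a MAP kinase phosphatase (log2 change -0.35), and Azin2, an antizyme inhibitor (-0.37). Several members, among them Lcn2, Cebpd and Nfkbia, are also induced by cytokines, so the count is not that of genes under the glucocorticoid receptor alone.

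The letters of a glucocorticoid receptor half-site pair, ACANNNTGT, were searched on both strands in the 250 bases before the start of each gene. RefSeq promoter windows (GRCm38.p6) were matched by name to 11273 of the 14300 tested genes, and 4.52% of them held these letters. The share was 18.2% (6 of 33) among members of the list that rose, 9.05% of 431 genes at least 2-fold higher, 2.21% of 136 genes at least 2-fold lower and 4.56% of 5727 genes that did not pass. Shown for 3 members that rose, read 5′ to 3′ on the strand of the gene with the letters in capitals, the windows place the match 92 bases before the start of Mt1 (chr8:94178952-94179050), 25 before that of Glul (chr1:153899859-153899928) and 152 before that of Lcn2 (chr2:32387838-32387936, minus strand). A match describes letters only, not a bound site.
Mt1: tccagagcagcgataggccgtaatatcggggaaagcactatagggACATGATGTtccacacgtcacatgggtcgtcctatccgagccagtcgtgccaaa
Glul: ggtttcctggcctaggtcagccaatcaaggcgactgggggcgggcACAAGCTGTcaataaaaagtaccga
Lcn2: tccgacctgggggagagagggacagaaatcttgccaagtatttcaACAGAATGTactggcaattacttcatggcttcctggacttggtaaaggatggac

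Interferon-type letters were also more frequent among inflammatory and strongly higher genes than among all genes. The core of the interferon-stimulated response element (ISRE), searched on both strands, lay in 3.09% of all matched promoters, in 16.4% of 73 inflammatory genes that rose and in 9.05% of the genes at least 2-fold higher. TTCCNGGAA, a STAT site, lay in 1.28% of all and in 2.32% of the genes at least 2-fold higher. High shares were not confined to these sets or to genes that rose. Of the immediate early genes that fell, described below, 18.5% (5 of 27) held ISRE letters and 14.8% (4 of 27) held ACANNNTGT. CACGTG, the E-box described with the clock genes, lay in 15.2% (5 of 33) of the glucocorticoid-induced genes that rose. Base composition differs between promoters, and these shares were not adjusted for it.

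Genes of lipid release and storage turned in both directions. Among 68 tested genes of fatty acid and lipid droplet metabolism 15 rose and 21 fell, near the background of 25.1% and 24.2%, but the rises were the larger. Plin4, a lipid droplet coat protein, went from 5.11, 5.44 and 5.25 CPM to 36.9, 32.8 and 36.4 CPM, and Angptl4, an inhibitor of lipoprotein lipase, rose 4.88-fold. Ucp2, a mitochondrial uncoupling protein, went from 42.0, 48.3 and 41.1 CPM to 85.7, 90.1 and 87.6 CPM. Genes of fat breakdown in mitochondria did not follow: Hadha and Cpt2 fell by 0.42 and 0.53 on the log2 scale, as did the acyl-CoA dehydrogenases Acadm (-0.32) and Acads (-0.72). These 4 were chosen after their values were seen.

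Genes of sterol synthesis and handling were more often lower than higher. The enzymes that build cholesterol from acetyl-CoA are under the factor SREBP2, and in brain they work mostly in glia. Of 42 tested genes of sterol synthesis and handling 24 fell and 6 rose (median log2 change -0.19). Srebf2, which encodes SREBP2 itself, had 384, 353 and 381 CPM after PBS and 280, 267 and 251 CPM after LPS, and Sqle, the squalene epoxidase, had 85.6, 91.6 and 89.0 CPM against 60.9, 54.6 and 53.6 CPM. All members that fell did so by less than 2-fold, and in the test against a 1.5-fold change 0 fell and 3 rose. Members that rose included Apod, which binds lipids, and Abca1, which exports cholesterol from cells. Abca1 went from 57.6, 62.1 and 59.8 CPM to 114, 112 and 108 CPM. The largest rise in the list, a log2 change of 4.165, belonged to neither.

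Oligodendrocyte genes also leaned down. Of 48 tested myelin and oligodendrocyte genes 32 fell and 8 rose (median -0.40), and 8 fell in the test against a 1.5-fold change. Olig1, a lineage transcription factor, had 167, 179 and 182 CPM after PBS and 113, 112 and 109 CPM after LPS. Padi2, a deiminase that modifies myelin basic protein, had 50.3, 48.6 and 51.5 CPM against 27.2, 25.4 and 23.6 CPM, and Ugt8a, which makes the myelin lipid galactosylceramide, fell 1.66-fold. Major myelin transcripts differed among themselves. Mbp, myelin basic protein, did not pass the test (mean 3667 CPM after PBS and 3641 CPM after LPS), Cnp and Mag fell from means of 343 to 260 CPM and 223 to 182 CPM, and Mobp, a structural myelin protein, rose from 853, 847 and 789 CPM to 1029, 1051 and 1054 CPM. Of 9 oligodendrocyte markers 6 fell and 2 rose, and their summed level, most of it Mbp, was 5249 to 5686 CPM after PBS and 5517 to 5545 CPM after LPS, within the PBS range. In bulk tissue fewer cells of a type and less RNA per cell cannot be told apart, here and for every cell type below.

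Among 11 endothelial markers 5 rose and 5 fell. Their sum was 776 to 803 CPM after PBS and 772 to 795 CPM after LPS, with the largest share from Bsg, basigin, which fell from a mean of 459 to 399 CPM. Of 54 tested angiogenic, haemostatic and endothelial activation genes 22 rose and 11 fell (median 0.24). Adamts1, a secreted protease that cleaves versican and binds VEGF (chromosome 16, 85590715 to 85600001), went from 18.3, 18 and 19.4 CPM to 95.9, 91.4 and 92.5 CPM (5.02-fold), and its relative Adamts9 rose 3.98-fold. Plat, the tissue plasminogen activator, went from 30.8, 34.9 and 37.5 CPM to 73.3, 75.4 and 74.0 CPM. Vegfa, the main endothelial growth factor, fell from 86.1, 78.8 and 80.4 CPM to 49.0, 52.5 and 53.9 CPM. Its receptor gene Kdr fell too, from a mean of 27.4 to 21.2 CPM, as did Tek, the angiopoietin receptor, from 19.5 to 14.9 CPM.

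Genes of the blood-brain barrier also split, with 18 of 48 tested members higher (37.5%) and 13 lower (27.1%). Over all tested genes these shares were 25.1% and 24.2%. Cdh5, the cadherin of endothelial junctions, had 25.3, 21.8 and 24.5 CPM after PBS and 58.2, 55.8 and 59.1 CPM after LPS, and Mfsd2a, the carrier of docosahexaenoic acid, rose 1.98-fold. Abcb1a, the drug efflux pump P-glycoprotein, fell from 31.7, 31.6 and 31.8 CPM to 21.6, 20.1 and 20.8 CPM, whereas its paralog Abcb1b rose from 3.29, 2.59 and 3.95 CPM to 6.94, 6.42 and 6.51 CPM. Reads shared by these 2 near-identical genes could have been split between them, so the opposite directions are uncertain. Slco1a4, an organic anion carrier, fell 1.46-fold. Slc10a6, a carrier of sulphated steroids, had 0, 0.0633 and 0.0682 CPM after PBS and 4.32, 4.92 and 5.23 CPM after LPS.

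Basement membrane and interstitial matrix genes rose more often than they fell: 29 of 73 rose and 8 fell (median 0.20). Col4a1, a basement membrane collagen, went from 64.8, 65.9 and 67.5 CPM to 152, 151 and 150 CPM, and its partner Col4a2 from 82.7, 80.0 and 83.6 CPM to 133, 131 and 139 CPM. Nid1, the nidogen that links collagen IV to laminin, rose 2.49-fold. P4ha1, a prolyl hydroxylase needed for collagen folding, fell 1.62-fold, and the brain proteoglycan Spock3 fell 1.24-fold. Fibroblast and meningeal markers moved with this list: 12 of 13 tested rose, and their sum went from 556 to 620 CPM after PBS to 1107 to 1121 CPM after LPS, most of it from Ptgds and Apod. Without the 6 members that are also fibroblast markers, 24 of 67 rose and 8 fell. The part of meningeal tissue in the remaining rise was not tested.

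Growth factor pathways gave a mixed picture. TGF-beta, activin and BMP signalling had 23 of 60 members higher and 10 lower, with rises in the receptors Tgfbr3 (1.79-fold) and Acvr2a (1.45-fold) and in the repressor Ski (1.39-fold). Wnt signalling had 16 higher (10 without PBS replicate 1) and 16 lower of 66, near the background, so the large rise of Wnt10b stood beside falls of the inhibitor Nkd1 (1.63-fold) and the nuclear factor Tcf7l2 (1.34-fold). Fzd4, a Wnt and Norrin receptor of vessels, rose from 22.8, 25.9 and 24.9 CPM to 45.6, 46.0 and 43.0 CPM. Notch signalling had 7 of 40 higher (17.5%) and 6 lower (15%), below the 25.1% and 24.2% of all tested genes. The endothelial Notch ligand Dll4 rose 2.32-fold. Igfbp3, a carrier of insulin-like growth factors, went from 12.4, 13.4 and 13.4 CPM to 42.1, 42.2 and 44.4 CPM, and Dio2, the deiodinase that makes active thyroid hormone, from 46.2, 46.0 and 40.6 CPM to 117, 118 and 111 CPM.

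Of 33 genes of resting microglia 10 rose (30.3%) and 11 fell (33.3%), against 25.1% and 24.2% of all tested genes. P2ry12, the ADP receptor that marks resting microglia, had 30.7, 30.7 and 32.9 CPM after PBS and 15.6, 15.6 and 14.9 CPM after LPS. Cd33, a sialic acid receptor, rose 2.72-fold and Golm1, a Golgi protein, 1.72-fold. The sum of 10 microglial markers was 268 to 286 CPM after PBS and 299 to 319 CPM after LPS, with 3 members higher and 2 lower. The complement genes C1qa and C1qb rose from means of 23.3 to 44 CPM and 18 to 41.2 CPM, and Cx3cr1, the fractalkine receptor, fell with P2ry12, from 43.4 to 36.2 CPM. Astrocyte functional genes split 17 higher (34.7%) and 19 lower (38.8%) of 49. The connexins Gjb6 and Gjb2 rose 1.67-fold and 2.16-fold, and Agt, angiotensinogen, rose from 87.4, 85.0 and 81.3 CPM to 135, 135 and 129 CPM. Markers of infiltrating blood cells stayed near 0 for the defining genes: S100a8 averaged 0.0649 and 0.118 CPM, S100a9 0.112 and 0.124 CPM, and Ltf, Cd3d, Gzma and Nkg7 had no count in the 6 libraries. Ace, on the leukocyte list but also made elsewhere in brain and singled out after its values were seen, gave most of that list's sum of 49.7 to 53.8 CPM after PBS and 66.2 to 67.6 CPM after LPS.

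Immediate early genes, which neurons transcribe within minutes of firing, were lower after LPS. Of 61 tested immediate early and MAP kinase phosphatase genes 36 fell and 10 rose (median -0.30), and 11 fell in the test against a 1.5-fold change. Arc, the activity-regulated cytoskeletal protein of synapses (chromosome 15, 74540932 to 74544419), had 148, 152 and 152 CPM after PBS and 63.2, 67.5 and 65.1 CPM after LPS, a log2 change of -1.2 ± 0.05 (edgeR adjusted p = 7.32e-27). Egr1, an early growth response factor, had 203, 190 and 194 CPM against 86.6, 89.8 and 84.8 CPM, and Egr2 had 14.9, 14.5 and 14.6 CPM against 4.93, 3.92 and 3.59 CPM. Npas4, a factor induced by calcium entry in neurons, fell from 27.2, 26.3 and 23.5 CPM to 9.87, 9.10 and 12.1 CPM. Every PBS library exceeded every LPS library for these 4 genes, as the rule for naming genes required. The same held for 27.1% of all tested genes. Later products of activity were lower too, with Bdnf, the neurotrophin, and Vgf, a secreted peptide precursor, down 1.99-fold and 1.67-fold. The members that rose included the small MAF proteins, which lack an activation domain: Maff went from 1.76, 1.9 and 1.57 CPM to 7.86, 7.91 and 6.27 CPM and Mafk from 11.8, 12 and 13.4 CPM to 26.9, 24.5 and 25.7 CPM.

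Several immediate early genes are known targets of CREB, which binds TGACGTCA. The letters lay within 250 bases before the start of 2.91% of all matched genes, of 18.5% (5 of 27) of the immediate early genes that fell and of 1 of 10 that rose. The windows of Dusp1, which fell (chr17:26508563-26508660, minus strand), and Maff, which rose (chr15:79347446-79347519), both hold them, 143 and 29 bases before the start, so the letters did not separate the directions.
Dusp1: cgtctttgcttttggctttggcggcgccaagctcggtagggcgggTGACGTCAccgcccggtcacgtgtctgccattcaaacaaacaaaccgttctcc
Maff: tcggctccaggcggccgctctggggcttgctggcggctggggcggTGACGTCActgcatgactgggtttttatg

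Clock genes moved in an uneven way. Of 28 tested, 12 rose and 3 fell (median 0.11), and the falls dropped to 1 without PBS replicate 1, without any single LPS library or with a replicate block. Among the negative arm of the clock, Per1 went from 143, 139 and 140 CPM to 219, 212 and 219 CPM, Cry1 from 15.4, 15.9 and 18.7 CPM to 30.8, 34.1 and 31.8 CPM, and Cry2 from 128, 138 and 140 CPM to 205, 192 and 198 CPM. Dbp, an output factor driven by CLOCK and BMAL1, fell from 49.4, 54.2 and 54.0 CPM to 22.2, 27.2 and 27.3 CPM. The sources used here do not give the hour of tissue collection, and its part in these differences was not tested. CACGTG, the E-box that CLOCK and BMAL1 bind, lay in 9.47% of all matched promoters and in 33.3% (4 of 12) of the clock genes that rose. It lies 60 bases before the start of Cry1 (chr10:85185064-85185159, minus strand) and 166 before that of Per1 (chr11:69098738-69098833).
Cry1: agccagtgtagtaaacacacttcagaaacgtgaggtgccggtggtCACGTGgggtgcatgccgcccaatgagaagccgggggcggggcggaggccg
Per1: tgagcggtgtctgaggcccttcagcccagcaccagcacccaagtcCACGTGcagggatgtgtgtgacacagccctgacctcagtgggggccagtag

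**Figure D3:**
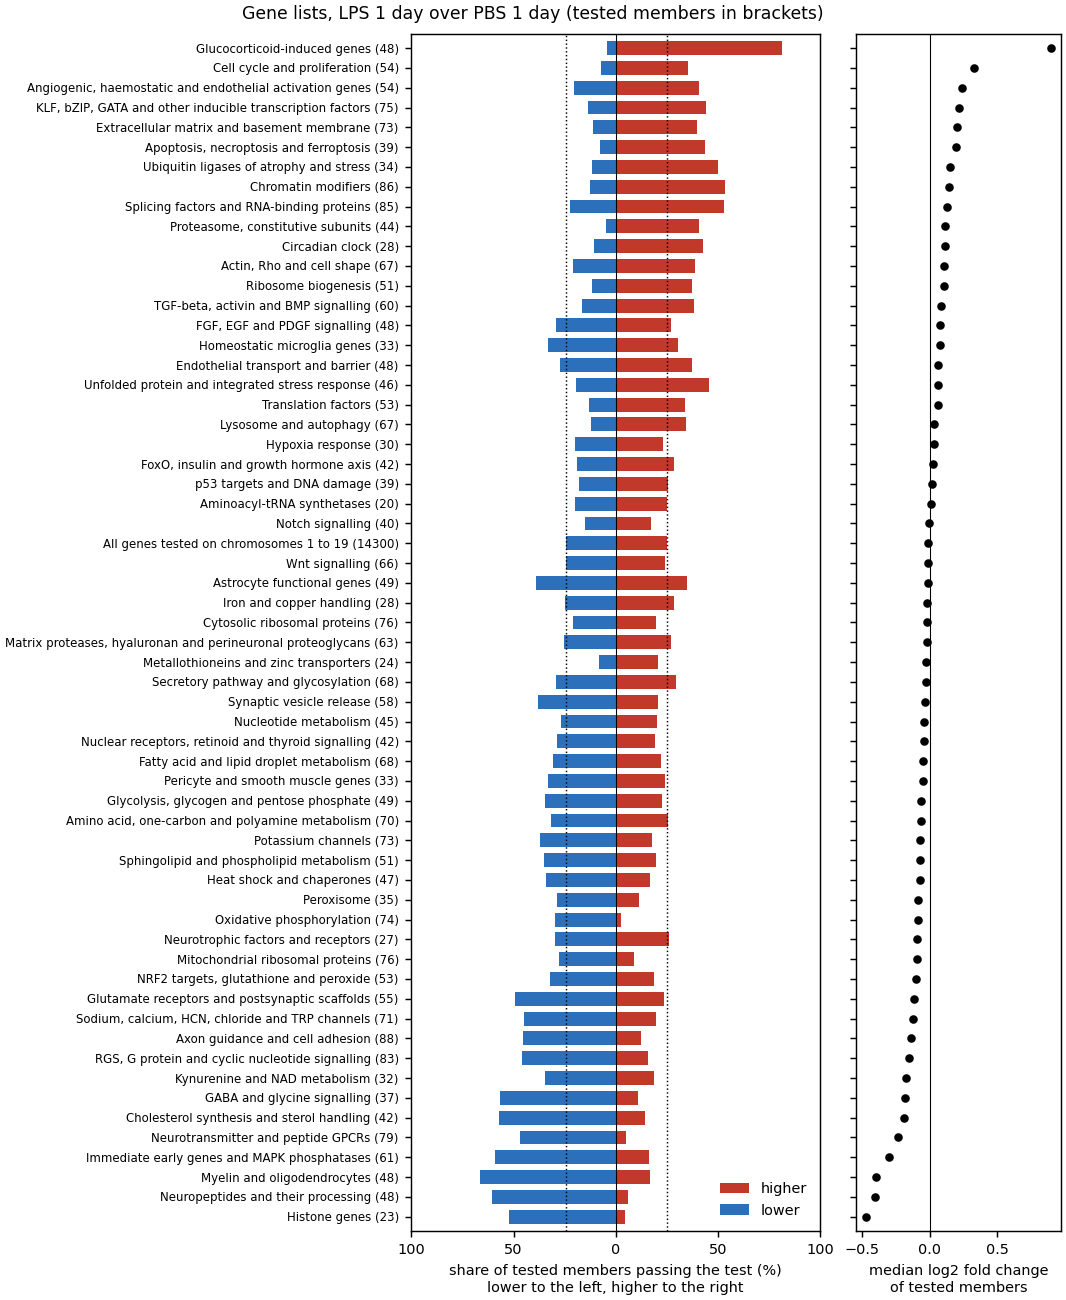
Share of tested members higher (red, right) and lower (blue, left) after LPS for each list with at least 20 tested members, the inflammatory list left out, with the median log2 change at the right. Dotted lines give the background of 25.1% higher and 24.2% lower. Glucocorticoid-induced genes top the order and histone, neuropeptide, myelin and immediate early genes close it.

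Cell cycle genes rose from low levels. Of 54 tested 19 rose and 4 fell (median 0.33). Mcm7, a subunit of the replicative helicase, went from 16.5, 14.7 and 14.4 CPM to 28.8, 26.3 and 28.9 CPM, and Mcm4, another, from 13, 13.5 and 13.3 CPM to 20.7, 19.7 and 20.4 CPM. Cdt1, which licenses replication origins, rose 3.33-fold but reached only 3.70 to 6.29 CPM, and Ccnd2, a G1 cyclin, fell 1.28-fold. Histone genes went the other way, with 12 of 23 lower and 1 higher (median -0.47), and 37 listed histone genes were too low to test. H2bc4 had 13.9, 12.8 and 11 CPM after PBS and 7.55, 6.92 and 7.91 CPM after LPS, while H3f3b, a replacement histone gene made outside S phase, rose 1.31-fold. The replication and histone lists thus had medians of opposite sign.

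Among regulators of cell death 17 of 39 rose and 3 fell (median 0.20; 11 rose without LPS replicate 3), including the antiapoptotic Bcl2l1 (1.39-fold) and Mcl1 (1.25-fold), the caspase-8 inhibitor Cflar (1.4-fold) and the kinase Ripk1 (1.58-fold). Of p53 targets 10 of 39 rose, near the background, with Trp53inp1 going from 14.7, 17.6 and 17.1 CPM to 37.2, 44.9 and 44.9 CPM.

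Chromatin and RNA regulators rose broadly by small amounts. Of 86 tested chromatin modifiers 46 rose and 11 fell (median 0.14; 7 fell without PBS replicate 3 or without LPS replicate 3), and of 85 splicing factors and RNA-binding proteins 45 rose and 19 fell (median 0.13). Tet2, which oxidises methylcytosine, went from 66.9, 59.4 and 71.5 CPM to 110, 106 and 110 CPM, and Kmt2b, a histone H3 lysine methyltransferase, rose 1.56-fold. Hdac5, a deacetylase that shuttles with neuronal activity, fell from 230, 224 and 239 CPM to 165, 156 and 170 CPM. Srsf11, a splicing factor, rose 1.49-fold and Srsf5 1.35-fold, whereas Celf3 and Celf6, of a neuronal family, fell 1.54-fold and 1.72-fold. In the test against a 1.5-fold change 1 chromatin gene and 2 RNA-binding genes remained higher.

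These 2 lists hold long genes, with median lengths of 8171 and 6709 bases, and length moved with the change over all genes. When genes were cut into 5 equal groups by length, the shortest (255 to 2572 bases) had 15.7% higher and 25.1% lower (median -0.08), and the longest (7697 to 123179 bases) had 33.4% higher and 22.9% lower (median 0.04). The part of length in the small shifts of such lists was not tested.

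Protein turnover genes rose more often than they fell. Among 44 tested constitutive proteasome subunits 18 rose and 2 fell (median 0.11), each by less than 1.5-fold. The falls numbered 1 without PBS replicate 2, LPS replicate 1 or LPS replicate 3. Psme4, an alternative activator of the core, went from 61.2, 62.9 and 67.9 CPM to 85.7, 84.0 and 84.5 CPM, and Adrm1, a ubiquitin receptor, rose 1.31-fold. Ribosome biogenesis had 19 of 51 members higher and 6 lower, led by the RNA acetyltransferase Nat10 at 41.1, 40.8 and 40.4 CPM after PBS and 71.7, 71.0 and 80.0 CPM after LPS. Of unfolded protein and integrated stress response genes 21 of 46 rose and 9 fell: Ppp1r15a, the phosphatase subunit GADD34, rose 1.99-fold and Herpud1, of the endoplasmic reticulum degradation complex, 1.36-fold, while Phgdh, of serine synthesis, fell 1.58-fold. Cytosolic chaperones leaned down (8 higher, 16 lower of 47), with Hsph1, a disaggregase cofactor, at 390, 397 and 389 CPM after PBS and 284, 287 and 281 CPM after LPS.

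Respiratory chain genes seldom rose. Of 74 tested 22 fell (29.7%) and 2 rose (2.7%), with a median of -0.09. The rises numbered 1 without LPS replicate 2 or 3, and 4 without replicate 1 of the libraries at 7 days. Atp5d, a subunit of ATP synthase, had 90.1, 97.9 and 96.6 CPM after PBS and 71.8, 58.1 and 54.8 CPM after LPS. Cyc1, cytochrome c1, fell 1.30-fold. Mitochondrial ribosomal proteins had 21 of 76 lower (27.6%), near the 24.2% of all tested genes, and 7 higher (9.21%), below the 25.1%. Mrpl36 (1.89-fold) and Mrps12 (1.87-fold) were among those lower. None of the respiratory chain genes passed the test against a 1.5-fold change. Without PBS replicate 2 the falls numbered 14 and 12. Both lists hold short genes (median 1815 and 2542 bases).

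Of cytosolic ribosomal proteins 15 of 76 rose (19.7%) and 16 fell (21.1%), beside 25.1% and 24.2% of all tested genes. The rises numbered 9 without PBS replicate 3, and the falls 8 without PBS replicate 2 and 6 without LPS replicate 3. Rps26, Rps3a1 and Rpl34 stood apart, at 4-fold, 2.83-fold and 3.99-fold higher, and so did the glycolytic Gapdh, with 43.4, 41.4 and 38.8 CPM after PBS and 230, 233 and 212 CPM after LPS. All 4 have near-identical processed copies in the genome and their values are uncertain. At 7 days Gapdh had 221, 276 and 300 CPM, Rps3a1 110, 105 and 106 CPM and Rpl34 8.7, 8.02 and 8.4 CPM. Rps26 at 7 days, with 37.6, 45.2 and 52.7 CPM, lay between its levels after PBS (mean 19 CPM) and 1 day after LPS (mean 76.3 CPM). In the list of glycolysis, glycogen and pentose phosphate genes, Gapdh included, 17 of 49 fell and 11 rose, with Eno1, enolase, at 517, 564 and 534 CPM after PBS and 422, 415 and 404 CPM after LPS, whereas Pfkfb3, which makes an activator of glycolysis, rose 1.44-fold.

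Further metabolic lists held changes in both directions. In NAD and kynurenine metabolism 6 of 32 rose (18.8%, and 3 without LPS replicate 2) and 11 fell (34.4%). Over all tested genes 25.1% rose and 24.2% fell. Nampt, the rate-limiting enzyme of NAD salvage, went from 45.3, 48.7 and 50 CPM to 77.5, 71.8 and 71.1 CPM. Sirt5, a mitochondrial deacylase, fell 1.63-fold. NRF2 target and glutathione genes had 10 of 53 higher (18.9%) and 17 lower (32.1%). Txnip, the inhibitor of thioredoxin, rose from 12.5, 15.5 and 16.2 CPM to 31.6, 31.3 and 31.2 CPM, and Srxn1, sulfiredoxin, fell 1.21-fold. Amino acid carriers split within a family: Slc38a2, a glutamine carrier, rose from 131, 135 and 132 CPM to 217, 208 and 208 CPM, and Slc38a3 fell from 102, 97.3 and 104 CPM to 69.2, 71.0 and 67.4 CPM. Nt5e, which makes adenosine outside cells, rose 2.36-fold. Hypoxia genes had 7 of 30 higher (23.3%) and 6 lower (20%), near the background. The rise of Hif3a (2.31-fold) and the fall of Vegfa were thus not part of a common move of that list.

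Neuronal signalling genes were more often lower than higher. Of 79 tested receptors for transmitters and peptides 37 fell and 4 rose (median -0.23; 2 rose without LPS replicate 1), and of 83 RGS, G protein and cyclic nucleotide genes 38 fell and 13 rose (median -0.15). Drd2, the dopamine D2 receptor, had 86.8, 87.9 and 89.1 CPM after PBS and 42.0, 40.6 and 46.0 CPM after LPS, and Adora2a, an adenosine receptor, 115, 122 and 120 CPM against 60.2, 53.8 and 52.2 CPM. Adcy5, the striatal adenylyl cyclase, fell from 661, 633 and 695 CPM to 426, 413 and 419 CPM. These are genes of striatal projection neurons, and 17 of 19 striatal markers fell, their sum going from 2754 to 2829 CPM to 1829 to 1832 CPM. Outside that set, Cckbr, the brain cholecystokinin receptor, fell 1.90-fold, and Rgs4, a brake on G protein signals, fell 1.63-fold. Galr2, a galanin receptor, and Htr3a, a serotonin-gated channel, rose 3.02-fold and 2.22-fold from levels below 3 CPM.

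Neuropeptide genes fell in 29 of 48 cases and rose in 3 (median -0.41). Oxt, oxytocin, had 25.7, 31.8 and 29.9 CPM after PBS and 10.5, 13.1 and 12.6 CPM after LPS, and Hcrt, the orexin precursor, had 18.9, 21.8 and 21.2 CPM against 9.40, 9.84 and 8.58 CPM. Prl, prolactin of the pituitary, fell 6.45-fold, from 4.64, 4.49 and 4.63 CPM to 0.925, 0.561 and 0.669 CPM. Hypothalamic and pituitary markers together summed to 133 to 150 CPM after PBS and 85.0 to 88.6 CPM after LPS, with 12 of 16 tested members lower.

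When genes on any of the 7 lists of regional neuron markers were left out, 14 of 30 remaining neuropeptide genes fell and 3 rose, and 31 of 70 receptors fell and 4 rose. The same step left 35 of 79 RGS and cyclic nucleotide genes lower and 12 higher. It took out 19 neuropeptide genes but only 9 receptor genes and 4 RGS and cyclic nucleotide genes. Regional genes outside the marker lists, such as Adcy5, stayed in, so these counts do not separate regional falls from others. Regional sums did not all fall: cortical and hippocampal excitatory neuron markers went from 1826 to 1890 CPM after PBS to 2156 to 2209 CPM after LPS, habenula markers from 276 to 286 CPM to 207 to 216 CPM, and cerebellar and hindbrain markers from 314 to 327 CPM to 253 to 262 CPM. Which tissue each library held and how much of each gene list followed it was not tested.

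**Figure D4:**
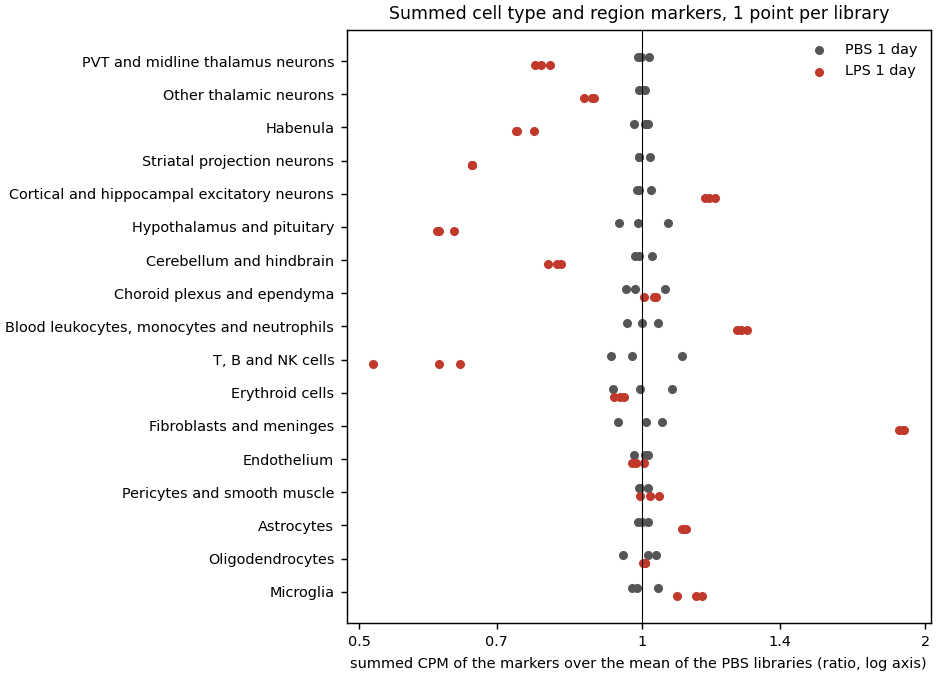
Summed CPM of each list of cell type or region markers in each library, divided by the mean of the PBS libraries (log axis; grey PBS, red LPS). Striatal and hypothalamic sums lie well below 1 after LPS, cortical sums above it, and fibroblast and meningeal sums near 2.

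Channels and synaptic genes followed with smaller shifts. Of 37 GABA and glycine genes 21 fell and 4 rose (median -0.18): Slc32a1, the vesicular GABA carrier, had 158, 153 and 161 CPM after PBS and 120, 112 and 112 CPM after LPS, and Slc12a5, the chloride extruder KCC2, 816, 826 and 860 CPM against 697, 672 and 695 CPM. Glutamate receptor and scaffold genes had 27 of 55 lower and 13 higher (8 without PBS replicate 2), with Shank3, a postsynaptic scaffold, down 1.36-fold. The vesicular glutamate carriers moved apart, Slc17a6, the thalamic form, falling from 195, 202 and 199 CPM to 136, 135 and 134 CPM and Slc17a7, the cortical form, rising from 720, 700 and 701 CPM to 894, 865 and 849 CPM. Potassium channels had 27 of 73 lower and 13 higher, and other cation and chloride channels 32 of 71 lower and 14 higher. Ryr1, an intracellular calcium release channel, fell from 50.4, 45.6 and 46.5 CPM to 21.7, 20.6 and 20.8 CPM, and Kcna1, a Shaker-type potassium channel, rose from 103, 94.5 and 101 CPM to 144, 138 and 144 CPM. Axon guidance and adhesion genes fell in 40 of 88 cases and rose in 11, Unc5b, a netrin receptor, by 1.51-fold.

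Large gene families showed no common direction beyond a few. Solute carriers were close to the background, with 92 of 288 higher (31.9%) and 77 lower (26.7%). Histocompatibility genes had 9 of 15 higher and none lower, and TRIM proteins 18 of 46 higher and 6 lower. Trim72, a membrane repair protein, led the TRIM genes, from 2, 1.77 and 1.43 CPM to 10.8, 10.3 and 10.2 CPM. Protocadherins fell in 13 of 64 cases (20.3%), below the 24.2% of all tested genes, and rose in 2, while 49 did not pass. Genes named for coiled coils and axonemes fell in 59 of 213 cases (27.7%) and rose in 25 (11.7%), with Ccdc153, of motile cilia, 2.06-fold lower. Foxj1, the factor that drives motile cilia and no member of that family, fell too (mean 17.7 CPM after PBS, 11.2 CPM after LPS). The 14 choroid plexus and ependymal markers summed to 1029 to 1134 CPM after PBS and 1076 to 1107 CPM after LPS, mostly from Enpp2 and Ttr, which did not pass the test.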

How the data were processed

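The deposited table holds, per gene, read counts and FPKM for 9 libraries with gene length, GRCm39 position and pathway names. Per the labels, Trizol RNA was made into libraries with a TruSeq RNA kit. The authors counted aligned reads per gene; TopHat2, HISAT2 and HTSeq are named in the submitters' processing notes, without roles or versions, and strandedness is not given in the sources used here, so overlapping genes cannot be separated. FPKM values, which the authors scaled by length and depth, were not tested. Gene lengths, pathway names and coordinates, other values in the table, were used as deposited.

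Counts of all 9 libraries (3 groups of 3) were fitted with edgeR 4.0.16 in R 4.3.3 (filterByExpr, TMM factors 0.983 to 1.03, quasi-likelihood F test). Benjamini-Hochberg adjustment ran over all 14837 genes tested, and those on chromosomes 1 to 19 are reported. The common biological coefficient of variation was 4.15%, with 6 residual and 43.4 prior degrees of freedom. SE is the absolute log2 fold change over the square root of F. The fit was also run on counts simulated from its own estimates of spread, with few genes changed. That run does not test the fit under changes as widespread as those reported here. No pair of libraries within a group looked like the same library sequenced again: their chi-square statistics were 2.01 to 3.62 times the degrees of freedom. These values do not tell whether the libraries came from different animals.

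The 62 gene lists, 17 marker lists and 15 families were chosen with earlier results of these data known. Named genes passed the test without overlap between groups. Outside the list of inflammatory names they were the 15 largest rises and falls at 5 CPM or more and the 10 largest in CPM. Added to these were up to 4 per list by p-value and 2 against its direction, and per family the 2 largest rises and falls. Some of these are not reported. Alternatives were other scalings, DESeq2 1.42.0, limma-voom, no filter, the 6 day 1 libraries, chromosomes 1 to 19 only, a replicate block, a 1.5-fold test, adjusted p below 0.01 and each library left out.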

Additional observations from a re-analysis of the deposited data

Results flagged for a closer look

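Genes of the Y chromosome, which lie outside the comparison of chromosomes 1 to 19, carried signal in the LPS libraries and almost none in the PBS controls. Their summed level averaged 81.7 CPM over the 3 libraries 1 day after LPS, where the control libraries had 1, 0 and 0 counts. The difference is far above the control level and runs with treatment in all 6 libraries.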

How the results depend on the processing

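The count of genes that passed (7048, 3585 higher and 3463 lower) stayed within 1.5 times under every alternative except the test against a 1.5-fold change, which left 624 genes, 494 higher and 130 lower. At an adjusted p below 0.01 it was 5410, and with DESeq2 6243. Scaling to library totals gave 3344 higher and 3744 lower, and upper-quartile scaling 3296 and 3795. Leaving out each library in turn gave 6170 to 7237 genes, 3195 to 3669 higher and 2975 to 3568 lower. The replicate block gave 6910 genes. Replicate numbers did not pair the samples (correlation of deviations between same-numbered PBS and LPS libraries -0.0131, 0.0295 and -0.000959). No named gene reversed under any alternative. Of 361 named genes, 224 no longer passed the test against a 1.5-fold change, and at most 7 under any other alternative. These genes were named for passing without overlap in the same libraries, so their stability follows largely from that choice. Leaving out the regional marker genes and, separately, the fibroblast marker genes was chosen after seeing the data. The depth limits genes under about 1 CPM. Treatment cannot be separated from the Y-linked difference, because both run together in all 6 libraries.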
